A study of Mus musculus with 6 samples.

Results

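The 9 genes described here encode citric acid cycle enzymes and isocitrate dehydrogenases: the subunits Idh3a, Idh3b and Idh3g of the NAD-dependent isocitrate dehydrogenase, the NADP-dependent Idh1 and Idh2, and Cs, Ogdh, Sdha and Mdh2. They are 9 of 6902 genes measured by a probe set that the array's annotation pairs with 1 gene and that passed the filter on low signal. Idh3a was chosen by its difference between the genotypes, which had the fifth smallest p value among 10633 probe sets in an earlier comparison of the same arrays. Its difference is therefore given as a description without a test. The others were taken with it as members of its complex and pathway. Each of the 9 is measured by 1 probe set paired with 1 gene, so that no choice between such probe sets was made. The annotation pairs 1 further probe set with several genes, 1 of the 9 among them, and it was not used for these genes. Liver RNA of 3 CT and 3 LERKO mice, all female and on the C57BL/6J background, was measured with 1 Affymetrix array per mouse. CT mice carried ERα fl/fl alleles. LERKO mice carried the same alleles together with the Alb-cre transgene, so that the presence of cre and the loss of ERα cannot be told apart. The albumin promoter drives cre in hepatocytes. ERα in the other cells of the liver was not measured here. For the arrayed animals, neither age nor feeding state is given in the sources used here.

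The citric acid cycle oxidises acetyl-CoA in the mitochondrial matrix and hands the electrons to the respiratory chain. In liver it also supplies intermediates for gluconeogenesis, for the synthesis of amino acids and, through exported citrate, for fatty acid synthesis. Isocitrate dehydrogenase 3 carries out the NAD-dependent oxidation of isocitrate to 2-oxoglutarate and is one of the regulated steps of the cycle. Its alpha subunit, Idh3a, carries the catalytic function, and the beta and gamma subunits, Idh3b and Idh3g, are needed for assembly and for allosteric control. Idh1 in cytosol and peroxisomes and Idh2 in mitochondria convert the same substrate with NADP and are separate enzymes.

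Signals are robust multichip average (RMA) values on the log2 scale. A difference of 1 is a doubling, and levels of different genes cannot be compared, because probes differ in brightness. In all 6 arrays each of the 9 genes lay above a signal of 100. Esr1, which encodes ERα, lay between 6.75 and 7.06 in the LERKO mice and between 8.29 and 8.78 in the CT mice, lower in every LERKO mouse. The hepatocyte markers Alb, Apoa1, Ttr and 6 others reached a signal of 100 in every mouse, and their summed signal on the linear scale ranged from 75002 to 79226 in CT and from 76083 to 78901 in LERKO liver. Genes of other organs were high in 2 arrays. In CT replicate 3, 4 of 9 pancreas markers and 3 of 12 muscle markers reached a signal of 100, beside 0 of either list in every other array. The summed signal was 2031 for pancreas (121 to 138 elsewhere). For muscle it was 1086, beside 325 in LERKO replicate 2 and 152 to 189 in the remaining arrays. In LERKO replicate 2, 7 of 9 adrenal markers reached a signal of 100, beside at most 1 elsewhere, and their summed signal was 7469 beside 190 to 226. In whole liver RNA, fewer cells of a type and less RNA per cell cannot be told apart.

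Idh3a was higher in every LERKO mouse than in every CT mouse. Its signal was 7.98, 7.76 and 7.90 in the CT mice and 8.45, 8.48 and 8.48 in the LERKO mice. The lowest LERKO mouse thus lay 0.47 above the highest CT mouse. The LERKO mice differed little among themselves, with 8.47 ± 0.015 (SD, n = 3), whereas the CT mice were at 7.88 ± 0.11 (SD, n = 3). The log2 fold change was 0.59 (standard error 0.08), a level 1.504 times that of CT on the linear scale. Its size ranked 176 of 10633 probe sets. The values of CT replicate 3 and LERKO replicate 2, the arrays with genes of other organs, lay between those of the other mice of their groups, and without both arrays the log2 fold change was again 0.59. Leaving out CT replicate 2, the lowest mouse, gave 0.53.

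Idh3b, the beta subunit of the same enzyme, was at 10.69, 10.76 and 10.71 in CT and at 10.75, 10.75 and 10.80 in LERKO liver. The groups overlapped, and the log2 fold change was 0.04 (95% confidence interval −0.11 to 0.19; adjusted p = 0.897 from limma). Idh3g, the gamma subunit, was at 10.40, 10.41 and 10.31 in CT and at 10.38, 10.43 and 10.39 in LERKO liver. Its groups overlapped as well, with a log2 fold change of 0.03 (95% confidence interval −0.13 to 0.18; adjusted p = 0.943 from limma), and without CT replicate 3 it was −0.0029. Neither of these genes passed the test.

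**Figure D1:**
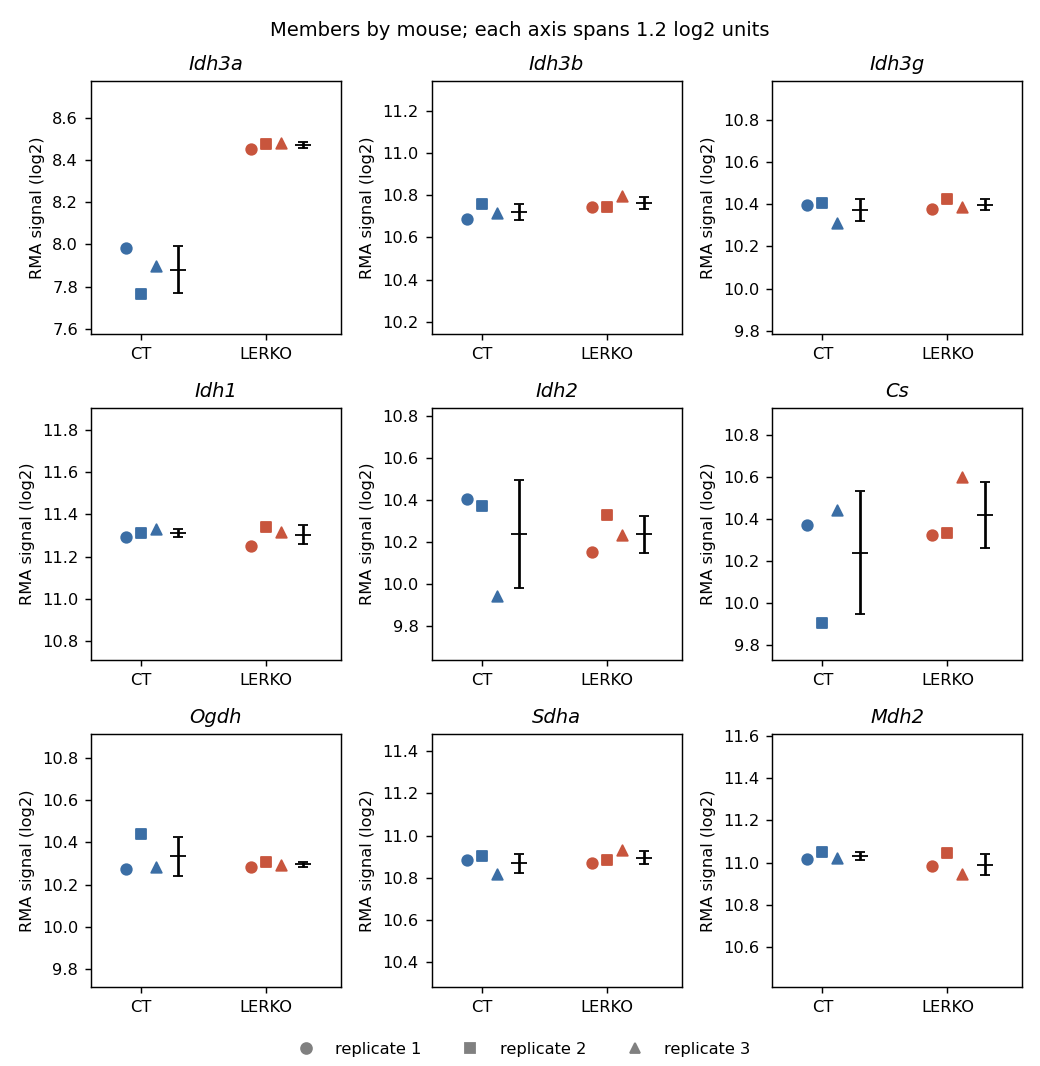
RMA signal (log2) of the 9 genes in each mouse, with CT in blue, LERKO in red and the symbol giving the replicate; bars are the mean ± SD of 3 mice, and every axis spans the same range. Idh3a separates the groups, with LERKO mice from 8.45 to 8.48 and CT mice from 7.76 to 7.98, while the groups overlap for the other 8 genes.

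The shift of Idh3a relative to its partners was examined within each mouse, where a shift of the whole array by a constant cancels. Repeating the quantile normalization, which is no such shift, moved both shifts of Idh3a by less than 0.02, to 0.53 against Idh3b and to 0.55 against Idh3g. Each difference was set relative to its mean in the CT mice. For Idh3a minus Idh3b it was 0.14, −0.16 and 0.02 in the CT mice and 0.55, 0.57 and 0.52 in the LERKO mice, a shift of 0.55 on the log2 scale, or 1.46 times. For Idh3a minus Idh3g it was 0.08, −0.15 and 0.08 in the CT mice and 0.56, 0.54 and 0.58 in the LERKO mice, a shift of 0.56. For both partners all LERKO mice lay above all CT mice, and with 1 array left out the change ranged from 0.47 to 0.62 against Idh3b and from 0.49 to 0.60 against Idh3g. Idh3b minus Idh3g, by contrast, ranged from −0.06 to 0.05 among CT mice and from −0.03 to 0.06 among LERKO mice, so that the groups overlapped. These differences rest on the same contrast by which Idh3a was chosen and were not tested.

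**Figure D2:**
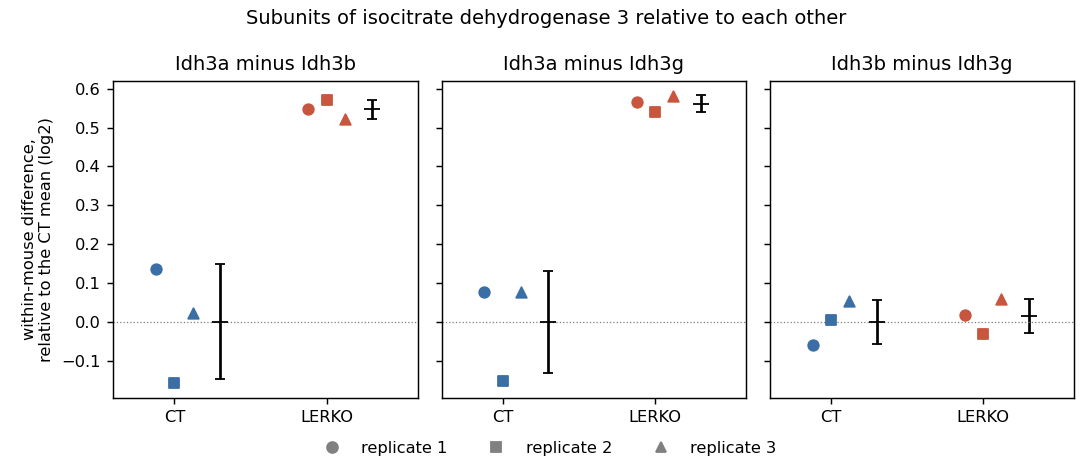
Difference between the log2 signals of 2 subunits within each mouse, relative to the mean of the CT mice (log2), 1 point per mouse with the mean ± SD of 3 mice per group. Idh3a moved against Idh3b by 0.55 and against Idh3g by 0.56, while Idh3b against Idh3g overlaps between CT and LERKO mice.

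ERα binds the estrogen response element, a palindrome, and the start regions of the genes were searched for its letters on both strands. RefSeq (GRCm38.p6) windows around the annotated gene starts were at hand for 8 of the 9 genes, in 14 windows, and not for Idh3a. The full element, GGTCA followed by any 3 bases and TGACC, was in 0 of the 14 windows and in 0.070% of 32851 windows of the same length. Its arm GGTCA, which reads TGACC on the other strand and is part of the full element, was in 3 of the 14 windows, those of Idh3b, Idh3g and Ogdh, and in 40.5% of all windows. The matches near the partner subunits of Idh3a are shown with 10 bases on either side and the match in capitals, both from the minus strand, at chr2:130284570-130284594 for Idh3b and at chrX:73786869-73786893 for Idh3g.
Idh3b: gtgtgtcctgTGACCctacattacc
Idh3g: cttaatgtttTGACCtgtagaggtc
Counted from the gene start, the match begins at position −133 in Idh3b and at position 15 in Idh3g. A match of this kind is a description of the letters and says nothing of binding.

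Neither of the NADP-dependent isocitrate dehydrogenases separated the groups. Idh1, the cytosolic and peroxisomal enzyme, was at 11.29, 11.31 and 11.33 in CT and at 11.25, 11.34 and 11.32 in LERKO liver, with a log2 fold change of −0.0089 (95% confidence interval −0.16 to 0.14; adjusted p = 0.986 from limma). All 6 mice lay within 0.09 of each other, the narrowest range of the 9 genes. Idh2, the mitochondrial enzyme, was at 10.40, 10.37 and 9.94 in CT and at 10.15, 10.33 and 10.23 in LERKO liver. The lowest of these values belongs to CT replicate 3. Its log2 fold change was −0.0015 (95% confidence interval −0.33 to 0.32; adjusted p = 0.998 from limma), and it was −0.15 without CT replicate 3. The part of the other-organ RNA of that array in the low value was not tested.

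Cs, the citrate synthase that opens the cycle, varied most between mice after Idh3a, over a range of 0.69. It was at 10.37, 9.91 and 10.44 in CT and at 10.32, 10.33 and 10.60 in LERKO liver. CT replicate 2 was the lowest mouse, as for Idh3a, and LERKO replicate 3 the highest. The log2 fold change was 0.18 (95% confidence interval −0.20 to 0.56; adjusted p = 0.822 from limma), and the groups overlapped. It depended on single arrays: it was 0.01 without CT replicate 2, 0.09 without LERKO replicate 3, 0.28 without CT replicate 3 and 0.32 without CT replicate 3 and LERKO replicate 2.

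Ogdh, the substrate-binding component of the 2-oxoglutarate dehydrogenase complex, was at 10.27, 10.44 and 10.28 in CT and at 10.28, 10.31 and 10.29 in LERKO liver. CT replicate 2 stood above the other 5 mice, and the log2 fold change was −0.04 (95% confidence interval −0.21 to 0.14; adjusted p = 0.926 from limma). Sdha, the flavoprotein of succinate dehydrogenase, which also serves the respiratory chain as complex II, was at 10.89, 10.90 and 10.82 in CT and at 10.87, 10.88 and 10.93 in LERKO liver. Its log2 fold change was 0.03 (95% confidence interval −0.13 to 0.18; adjusted p = 0.943 from limma). Mdh2, the mitochondrial malate dehydrogenase that regenerates oxaloacetate, was at 11.02, 11.05 and 11.02 in CT and at 10.98, 11.04 and 10.94 in LERKO liver, with a log2 fold change of −0.04 (95% confidence interval −0.19 to 0.11; adjusted p = 0.906 from limma). The groups overlapped for all 3 genes.

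Of the 9 genes, 5 had higher and 4 lower mean levels in LERKO liver, with a median log2 fold change of 0.03, beside a median of −0.0099 over all probe sets. Among the 8 genes other than Idh3a, 4 were on either side of 0, the median was 0.01, and all log2 fold changes lay between −0.04 and 0.18. At an adjusted p under 0.05 from limma, 0 of the 8 were called, and 0 of 10633 probe sets (0%) were called in all. Esr1, with the smallest p, had an adjusted p of 0.149 from limma and was not called either. The paper, at the same false discovery rate, reports 3 regulated genes, Esr1 among them. A gene not called here is thus not shown to be unchanged. Where a signal of 100 was required in all 6 arrays, 3 probe sets were called, none of them of the 8 genes. At an unadjusted p under 0.05 the 8 genes gave 0 calls in either direction, beside 2.98% of probe sets called as higher and 4% called as lower. All LERKO mice lay above all CT mice for 1 of the 9 genes, Idh3a, where 5.91% of probe sets did so, and below for 0 of the 9, where 7.13% did so. For Idh3a nothing is read from these shares, since the same contrast chose it. For 5 of the 8 other genes (Idh3b, Idh3g, Idh1, Sdha and Mdh2) the SD within groups was between 0.03 and 0.04, beside a median of 0.12 over all probe sets, and for Idh2 and Cs it was 0.19 and 0.23.

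The other enzymes of the cycle are 11 genes, of which 10 have a probe set with 1 gene on the array and 9 passed the filter. Of the 9, 5 were higher and 4 lower, with a median log2 fold change of 0.04 that was −0.019 without CT replicate 3 and LERKO replicate 2, and 0 were called at an adjusted p under 0.05 from limma. Sucla2, the ADP-forming beta subunit of succinyl-CoA synthetase, was the only one of them whose groups did not overlap. It was at 8.81, 8.80 and 8.88 in CT and at 8.95, 9.06 and 9.07 in LERKO liver, with a log2 fold change of 0.19 (95% confidence interval 0.03 to 0.36; unadjusted p = 0.0279, adjusted p = 0.703 from limma). With 1 array left out it ranged from 0.17 to 0.23. The subunits that join Sucla2 in this enzyme or replace it did not separate the groups: Suclg1, the shared alpha subunit, had 0.04 and Suclg2, the GDP-forming beta subunit, −0.03.

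Dlst and Dld, the partners of Ogdh in its complex, had log2 fold changes of 0.07 and 0.06. Of the other subunits of succinate dehydrogenase, Sdhb and Sdhc had −0.05 and −0.10 and Sdhd had 0.08. Fh1, the fumarase, had −0.07. Leaving out single arrays gave −0.20 to 0.10, and it was −0.31 without CT replicate 3 and LERKO replicate 2. The groups overlapped for all of these genes, with adjusted p values from 0.821 to 0.947 in limma.

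**Figure D3:**
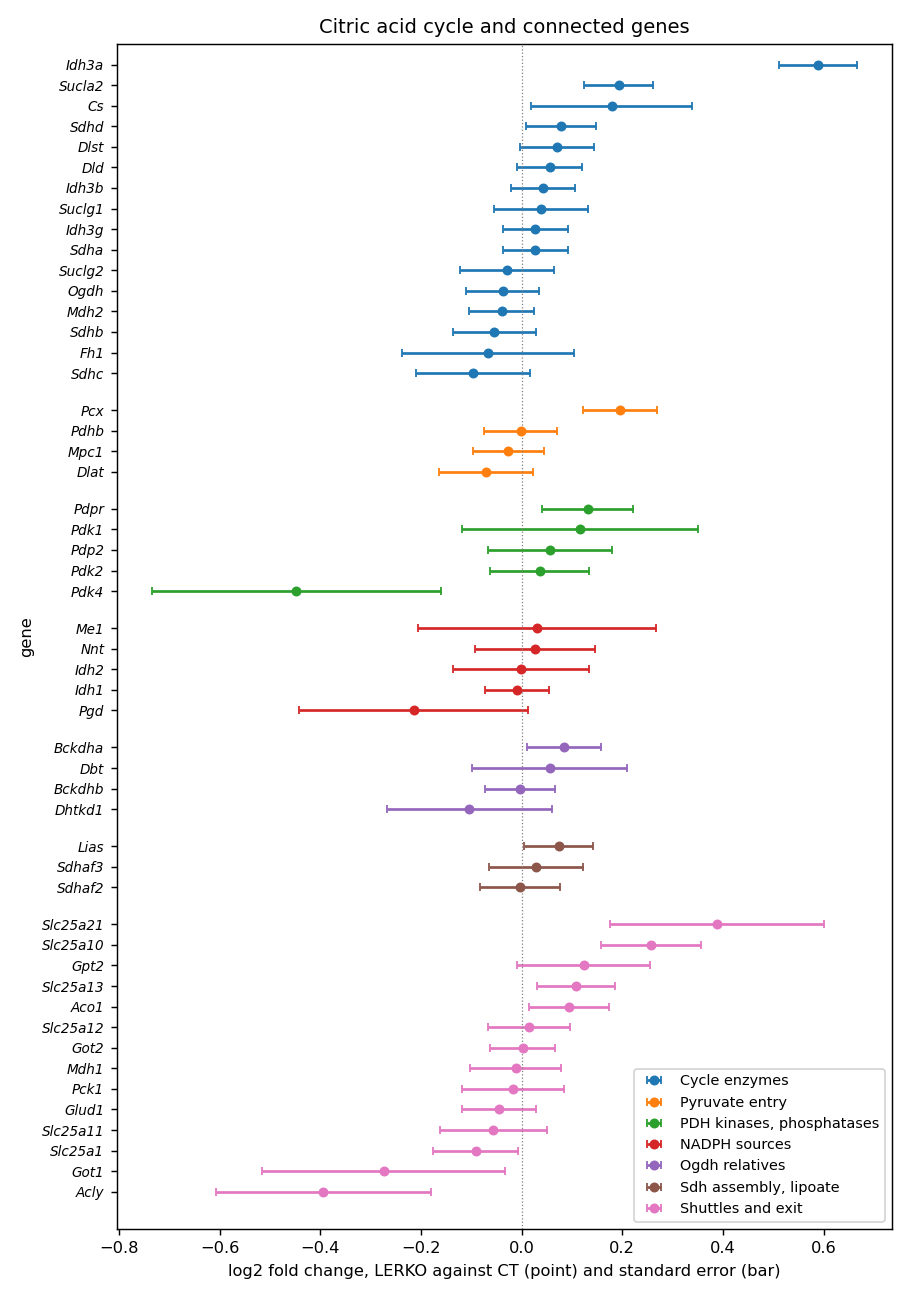
Log2 fold change between LERKO and CT (point, above 0 where LERKO was higher) with its standard error (bar) for the cycle enzymes and the connected genes that passed the filter, grouped by role and ordered by size. Idh3a stands at 0.59, and the other cycle enzymes lie between −0.10 and 0.19.

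Around the cycle, 42 of 58 listed genes that are not among the 9 passed the filter, the 9 further cycle enzymes included. Of these, 23 were higher and 19 lower in LERKO liver, with a median log2 fold change of 0.02. At an adjusted p under 0.05 from limma 0 were called, and at an unadjusted p under 0.05 there were 3 higher and 0 lower. The 3 were Sucla2, Pcx and Slc25a10, and in the same 3 genes, and in no other of the 42, the groups did not overlap. Over all probe sets, 2.98% were called as higher and 4% as lower at that p, and 5.91% and 7.13% did not overlap, so that 3 of 42 is near the background and is no result about these genes. Their values are given as a description.

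Among genes of pyruvate entry, Pcx, the pyruvate carboxylase that makes oxaloacetate for gluconeogenesis and for refilling the cycle, was at 10.77, 10.67 and 10.73 in CT and at 10.90, 10.85 and 11.01 in LERKO liver. All LERKO mice lay above all CT mice, with a gap of 0.075, and the log2 fold change was 0.20 (95% confidence interval 0.02 to 0.37; unadjusted p = 0.0338, adjusted p = 0.703 from limma). Pdhb and Dlat, parts of the pyruvate dehydrogenase complex that makes acetyl-CoA, had −0.0022 and −0.07, and Mpc1, a subunit of the mitochondrial pyruvate carrier, had −0.03. Mpc2, Pdha1 and Pdhx gave no value. Of the 7 genes listed for pyruvate entry, 5 have a probe set with 1 gene on the array and 4 passed the filter.

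Pdk4, a kinase that switches the pyruvate dehydrogenase complex off and is induced in fasting, varied widely. It was at 7.77, 6.88 and 7.70 in CT and at 6.58, 7.33 and 7.09 in LERKO liver. The groups overlapped, CT replicate 2 and LERKO replicate 1 being the lowest mice, and the log2 fold change was −0.45 (95% confidence interval −1.13 to 0.24; adjusted p = 0.776 from limma). With 1 array left out it ranged from −0.73 to −0.24. Pdk1, another kinase of the complex, was at 8.86, 8.06 and 8.67 in CT and at 8.33, 8.81 and 8.81 in LERKO liver, with the same 2 mice lowest. Its log2 fold change was 0.12 and turned to −0.12 without CT replicate 2. Pdk2 had 0.04, the phosphatase Pdp2 0.06 and its regulatory partner Pdpr 0.13, at adjusted p values from 0.790 to 0.952 in limma.

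Of the carriers and isozymes that move cycle intermediates out of and into the matrix, 14 passed the filter, 7 of them higher and 7 lower. Slc25a10, the dicarboxylate carrier that exchanges malate and succinate for phosphate, was at 10.88, 10.63 and 10.58 in CT and at 10.95, 10.89 and 11.03 in LERKO liver. The groups did not overlap, but by a gap of 0.0043 between CT replicate 1 and LERKO replicate 2. The log2 fold change was 0.26 (95% confidence interval 0.02 to 0.50; unadjusted p = 0.0379, adjusted p = 0.703 from limma). Slc25a21, a carrier of 2-oxoadipate and 2-oxoglutarate, had 0.39 (adjusted p = 0.748 from limma), with overlapping groups and a range from 0.21 to 0.60 with 1 array left out. Acly, which splits exported citrate for lipid synthesis, lay between 9.72 and 10.07 in CT and was at 9.08, 9.89 and 9.65 in LERKO liver. Its log2 fold change of −0.39 (adjusted p = 0.747 from limma) was −0.16 without LERKO replicate 1, the lowest mouse. Got1, the cytosolic aspartate aminotransferase, had −0.27 (adjusted p = 0.821 from limma), from −0.49 to −0.13 with 1 array left out and −0.69 without CT replicate 3 and LERKO replicate 2. Mdh1, the cytosolic isozyme of Mdh2, had −0.01.

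Among sources of NADPH other than Idh1 and Idh2, Pgd of the pentose phosphate pathway had a log2 fold change of −0.21, which single arrays moved between −0.41 and −0.017, and Me1, the cytosolic malic enzyme, and Nnt, the mitochondrial transhydrogenase, both had 0.03. Me1 was lowest in CT replicate 2 at 9.89, beside 10.32 to 10.83 in the other mice, and leaving out single arrays moved its log2 fold change between −0.25 and 0.23. Of genes for complexes that act on other 2-oxoacids, Dhtkd1 had −0.10, Bckdha 0.08, Dbt 0.06 and Bckdhb −0.0036. Without CT replicate 3 and LERKO replicate 2, Dhtkd1 had −0.30, Bckdha 0.02, Dbt −0.16 and Bckdhb 0.005. Of genes for lipoic acid and for assembly of succinate dehydrogenase, Lias had 0.07, Sdhaf3 0.03 and Sdhaf2 −0.0025. The groups overlapped for every gene in this paragraph, with adjusted p values between 0.821 and 0.995 from limma.

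The genes whose 6 values were most like those of Idh3a came from outside the cycle. Likeness was measured as the root mean square difference over the 6 mice between the values of 2 genes, each centred on its own mean, among 6901 genes. The closest were Cyp7a1 (0.09), which controls the rate at which bile acids are made from cholesterol, Alg2 (0.10), a mannosyltransferase of N-glycosylation, Sbk1 (0.12), a kinase, Acaa1a (0.12), a thiolase of peroxisomal fatty acid oxidation, and Miga2 (0.12), a protein of mitochondrial fusion. Their log2 fold changes lay between 0.42 and 0.46. Acaa1a was at 8.05, 7.79 and 7.86 in CT and at 8.45, 8.18 and 8.47 in LERKO liver, and CT replicate 2 was the lowest mouse for all 5 genes as for Idh3a. Of the other 8 genes described here, Cs was closest to Idh3a, at rank 648 with a difference of 0.25, and Idh3b and Idh3g, its partners, stood at ranks 1723 and 1896. The 5 genes were picked for this likeness, so that their values are a description. The measure includes the difference between the groups by which Idh3a was chosen. Genes without such a difference could not lie close to it, so nothing further is read from the ranks of the other 8 genes.

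**Figure D4:**
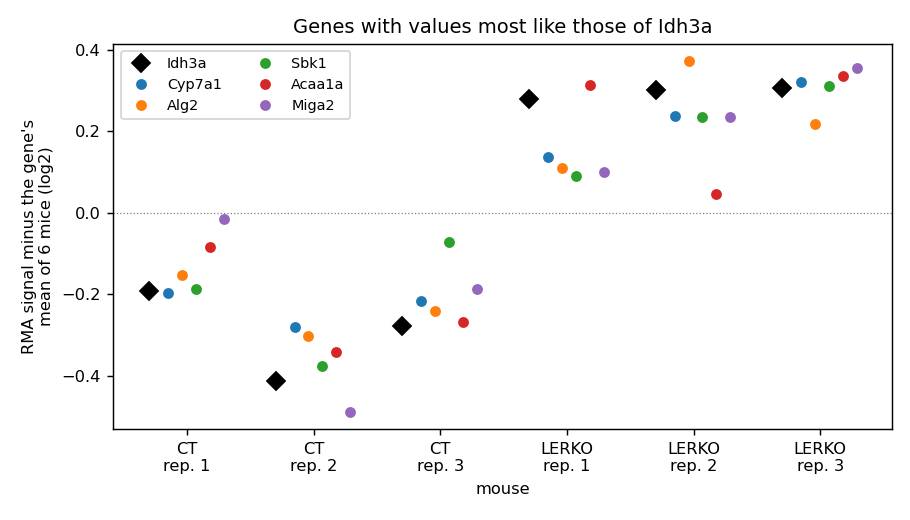
RMA signal minus the gene's own mean over the 6 mice (log2) for Idh3a (black diamonds) and the 5 genes of smallest root mean square difference from it, by mouse. All 6 genes are lowest in CT replicate 2 and lie above their means in all LERKO mice.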

How the data were processed

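One Affymetrix Mouse Gene 1.1 ST array was hybridised with liver RNA from each of 6 female mice, 3 CT and 3 LERKO, which the labels call biological replicates. The deposited values are log2 signals that the authors obtained by RMA in oligo (background correction, quantile normalization, summary per probe set). Its version is not given in the sources used here.

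Probe sets reaching a signal of 100 in at least 1 array were kept (10633 of 35556), which is 1 reading of the methods' filter at 100. The other, 100 in all 6 arrays, was an alternative. The annotation, with symbols updated by gene identifier, assigns 1 gene to 7895 of them, several to 623 and none to 2115. Only the 7895 were used for naming, each gene by its probe set of highest mean. LERKO and CT were compared over all kept probe sets with limma 3.58.1 in R 4.3.3 (two-sided, genotype as the only term, Benjamini-Hochberg adjustment, threshold 0.05). The fit was run on simulated data whose variances were drawn from limma's own model, which does not show how many changes it finds in these arrays. Precision is limited by having 3 arrays per group.

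The 9 genes, the connected gene lists and the markers were chosen with earlier results of these data known. The text names the 9 genes, Esr1, at most 4 members of each list (those with the greatest absolute log2 fold change), the 5 genes most like Idh3a and marker genes. Any other listed gene was named after its values were seen. Alternatives changed the signal threshold, the features tested, the variance model, the scaling, the test (the methods' t-test), the replicate block and the arrays included. The study compared its arrays with limma. The methods' t-test, which assumes unequal variance, is given there as a general test and not for the arrays. Leaving out CT replicate 3 and LERKO replicate 2 together was chosen after seeing the data.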

Additional observations from a re-analysis of the deposited data

How the results depend on the processing

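The log2 fold change of Idh3a kept its direction in all 18 alternatives, from 0.53 to 0.64, and its change against Idh3b and Idh3g kept its direction in all 9 that were run. The 8 other genes stayed above an adjusted p of 0.05 in all 18, with 0.508 (Idh2) as the lowest adjusted p. The signs of 4 of them turned, all with values between −0.04 and 0.03 as reported. Cs kept its sign, from 0.012 to 0.28 with 1 array left out and 0.32 without both arrays that hold genes of other organs. Idh1 was 0.0065 after quantile normalization was repeated, 0.0023 with arrays centred on their medians and −0.027 to 0.016 with 1 array left out. Idh2 was 0.017 and 0.0096 under the same scalings, −0.15 to 0.081 with 1 array left out and −0.19 without both arrays. Idh3g was −0.0029 to 0.044 with 1 array left out and −0.017 without both arrays. Ogdh was −0.067 to 0.016 with 1 array left out and −0.068 without both. The median of the 8 was −0.017 without both arrays, that of the 9 further cycle enzymes −0.019 and that of the 42 connected genes −0.026. The cause was not tested. Over all probe sets, the count at an adjusted p under 0.05, which was 0, became 3 with a signal of 100 required in all 6 arrays, 1 with a trend in limma and 0 to 1 with 1 array left out (1 without LERKO replicate 3). With the replicate number as a block (replicate block) the count was 0, and 574 instead of 742 probe sets had an unadjusted p under 0.05. That count was 1739 without a filter on signal, 455 by the methods' t-test, 1152 without both arrays and 416 (without LERKO replicate 1) to 1188 (without CT replicate 3) with 1 array left out. Same-numbered arrays did not deviate together (correlations from −0.16 to −0.07). The labels do not say whether the numbers pair the mice, and correlations of so few arrays cannot decide it. Averaging the probe sets of a gene changes nothing here, because each of the 9 genes has 1 that is paired with it alone.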

Other observations

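A list of 16 genes of general mitochondrial function (channels, protein import, chaperones and upkeep of mitochondrial DNA) passed the filter in full, with 11 higher and 5 lower in LERKO liver and a median log2 fold change of 0.02. In this list, 1 gene had an unadjusted p under 0.05 from limma and the groups of 2 did not overlap, all higher in LERKO. Over all probe sets, 2.98% were called as higher at that p and 5.91% lay higher without overlap. Nothing is read from these counts. The largest values belonged to Tomm40 and Timm44, both of protein import. Other import genes of the list had 0.07 (Tomm22), 0.01 (Timm23) and −0.09 (Tomm20). Tomm40, the channel of the outer membrane translocase, was at 7.10, 7.15 and 6.89 in CT and at 7.34, 7.38 and 7.23 in LERKO liver, with a log2 fold change of 0.27 (unadjusted p = 0.0245, adjusted p = 0.703 from limma) and groups that did not overlap. Without CT replicate 3 and LERKO replicate 2 it was 0.16. Timm44, which ties the inner membrane channel to the import motor, also had 0.27 (adjusted p = 0.703 from limma), with overlapping groups. It was at 6.54, 6.77 and 6.59 in CT and at 6.75, 6.87 and 7.11 in LERKO liver. These values are near the filter, 6.64 on the log2 scale, which CT replicates 1 and 3 did not reach. Tfam, which packages mitochondrial DNA and is a factor for its transcription, had 0.16 (adjusted p = 0.703 from limma) and did not overlap, by a gap of 0.028. It too was near the filter, at 6.68, 6.74 and 6.65 in CT and at 6.87, 6.77 and 6.91 in LERKO liver. Vdac2, a channel of the outer membrane, had −0.13 (adjusted p = 0.829 from limma), and Hspd1, the matrix chaperonin, had 0.02.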
